A study of Mus musculus with 12 samples.

Results

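The 10 genes of interest belong to the eIF2 phosphorylation switch and were followed in B16F10 cells depleted of Osgep. They are the kinase genes Eif2ak1, Eif2ak3 and Eif2ak4, the eIF2 subunit genes Eif2s1 and Eif2s2, the eIF2B subunit genes Eif2b1, Eif2b2, Eif2b4 and Eif2b5, and the phosphatase subunit gene Ppp1r15b. They were chosen by name, with earlier results of these data known, and all 10 were found among the 55487 genes of each count table. None of them passed the test in total RNA, in ribosome-protected fragments (RPF) or in the ratio of RPF to RNA, and no fitted change was larger than 0.36 on the log2 scale. Their counts were above 0 in every library, with 176 to 6492 RPF counts and 1432 to 24724 total RNA counts per gene and library. For Eif2s1 and Eif2s2, part of the RPF counts was listed on pseudogene copies, as described below.

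B16F10 is a mouse melanoma cell line. The cells carried a control short hairpin RNA (shCtr, given as wild type in the labels) or hairpin number 2 against Osgep (shOSGEP), introduced with a lentivirus and followed by puromycin selection, so the knockdown rests on 1 hairpin. Osgep encodes the catalytic subunit of KEOPS, the complex that makes N6-threonylcarbamoyladenosine on the tRNAs for ANN codons, those whose first base is A. RPF and total RNA libraries were made from 3 replicates of each genotype, which gave 4 groups of 3 and 12 libraries, and before lysis all cells had been exposed to 10 µg/mL cycloheximide for 5 min, which stops elongating ribosomes.

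The factor eIF2, a trimer of alpha, beta and gamma subunits, carries the initiator tRNA to the ribosome when bound to GTP. Its exchange factor eIF2B reloads it with GTP after each round. When one of the eIF2 kinases phosphorylates the alpha subunit, eIF2 holds on to eIF2B, initiation slows on most mRNAs, and mRNAs such as Atf4 are translated better; phosphatase 1 bound to Ppp1r15a or Ppp1r15b removes the phosphate. The libraries count RNA and footprints, so they give the amount and the ribosome occupancy of these transcripts and say nothing of protein level or phosphorylation. In bulk cells, fewer cells that express a gene and less RNA per cell cannot be told apart.

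The site that the kinases modify is a serine near the start of eIF2 alpha, encoded in exon 2 of 8 of Eif2s1. Its codon and the flanking codons are shown to place the switch in the coding sequence (chr12:78866668-78866697, plus strand, GRCm38, GENCODE M21). In the 10 codons printed, those starting with A are in capitals, and the serine is the codon tcc.
Eif2s1: cttAGTgaattatccAGAcgacgtATCcgt
Of these 10 codons, 3 start with A, and the serine codon is not one of them.

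A second set of sequences matters for how footprints of the beta subunit were counted. Eif2s2 (ENSMUSG00000074656, chr2:154871410-154892935, minus strand) has a processed pseudogene, Gm9892 (chr8:52196065-52197056, minus strand), whose sequence is 99.5% identical to it over 992 bases. Compared base by base from the start codon, they differ at 5 of 992 positions, which are T66C, A255G, G346T, C546A and G622A (Eif2s2 base, coding position counted from 1 at the A of the start codon, Gm9892 base). Stretches of 30 bases around the differences at positions 346 and 622 are given with the differing base in capitals.
Eif2s2, chr2:154884383-154884412, exon 4: ccgagccagaggatGaccttgacattatgc
Gm9892, chr8:52196696-52196725: ccgagccagaggatTaccttgacattatgc
Eif2s2, chr2:154877711-154877740, exon 6: aacctccacaggtcGtccgagtaggaacca
Gm9892, chr8:52196420-52196449: aacctccacaggtcAtccgagtaggaacca
Of the 967 windows of 30 bases in the Eif2s2 coding sequence, 84.1% are found letter for letter in Gm9892, so most fragments of footprint length cannot be assigned to one gene by sequence.

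The knockdown was uneven. Relative to shCtr of the same replicate, Osgep transcripts were down to 4.25% in the first pair, 44.03% in the second and 44.4% in the third, and Osgep footprints to 63.1%, 52.3% and 50.1%, so that the pair with the least Osgep RNA had the most footprints left. RPF libraries held 12.9 to 40.3 M counts (M for mega), of which 4.42 to 17.0 M fell on protein-coding genes, and the shOSGEP replicate 1 RPF library was the one with the fewest. It also differed in composition, with 15.6% of its counts on protein-coding genes, against 29.8% to 48.6% in the other RPF libraries. Total RNA libraries held 46.7 to 81.1 M counts. All 7 melanocyte markers (Mitf, Sox10, Tyr, Tyrp1, Dct, Pmel and Mlana) were above 1 CPM (counts scaled to a library of 1 M) in every total RNA library, with a sum of 9665 to 16836 CPM in shCtr and 2655 to 12789 in shOSGEP. The 4 fibroblast markers summed to 6.51 to 8.83 CPM in shCtr and 10.1 to 25.3 in shOSGEP. Their highest values were 15.3 CPM for Col1a1, 8.65 for Pdgfra, 5.36 for Col1a2 and 0.062 for Dcn. The leukocyte, keratinocyte and endothelial lists stayed at or under 1.41, 0.039 and 0.22 CPM in sum, with Cd3e, Krt5 and Cdh5 at 0 throughout and Lyz2, a leukocyte marker, at up to 1.32. The part of these markers in the values given here was not tested.

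To ask whether the sensors of the switch were expressed differently, the kinases were examined first. Eif2ak1 (ENSMUSG00000029613, chr5:143817788-143904251, plus strand) encodes HRI, the kinase known for sensing heme and, through Dele1, mitochondrial stress. Its total RNA was 76.9, 85.4 and 80.01 CPM in shCtr replicates 1, 2 and 3 and 75.03, 81.8 and 71.5 CPM in the shOSGEP libraries. The groups overlapped, although shOSGEP was slightly lower in each of the 3 pairs. In RPF it was 21.5, 25.6 and 27.4 CPM in shCtr and 22.5, 24.0 and 20.2 CPM in shOSGEP, with overlapping groups. The edgeR fit gave Eif2ak1 a log2 change of −0.085 ± 0.13 (SE, adjusted p 0.975) at the RNA level and of −0.16 ± 0.23 (SE, adjusted p 0.9998) at the footprint level. The 95% interval of its fold change was 0.761 to 1.17 for RNA and 0.613 to 1.31 for footprints.

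Eif2ak3 (ENSMUSG00000031668, chr6:70844515-70905245, plus strand) encodes PERK, the kinase of the endoplasmic reticulum stress response. It had the largest fitted change of the 10 genes in total RNA. Its RNA was 80.8, 66.5 and 91.4 CPM in shCtr and 132, 89.97 and 84.3 CPM in shOSGEP, so that the highest value was that of shOSGEP replicate 1 and the other libraries were interleaved. Its RPF were 35.4, 31.04 and 42.5 CPM in shCtr and 42.4, 37.9 and 43.6 CPM in shOSGEP, higher in each of the 3 pairs and still overlapping between groups. Its edgeR log2 change was 0.36 ± 0.22 (SE, adjusted p 0.975) for RNA and 0.18 ± 0.24 (SE, adjusted p 0.9998) for footprints. With each library left out in turn, the total RNA change ran from 0.12 to 0.46. Without replicate 1, 2 or 3 of both genotypes it was 0.13, 0.33 and 0.57, in no case passing the test.

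Eif2ak4 (ENSMUSG00000005102, chr2:118388618-118475234, plus strand) encodes GCN2, the kinase that responds to uncharged tRNA and stalled ribosomes. Total RNA measured 47.02, 47.4 and 43.7 CPM in shCtr and 47.7, 40.4 and 43.7 CPM in shOSGEP. Its RPF were 22.1, 26.1 and 23.3 CPM in shCtr against 20.7, 23.1 and 26.8 CPM in shOSGEP. Neither assay separated the groups, and the 3 pairs differed in sign, with fitted log2 changes of −0.067 in total RNA (SE 0.14) and −0.018 in RPF (SE 0.23). The fourth kinase gene, Eif2ak2, which encodes the double-stranded RNA sensor PKR and is not one of the 10, measured 60.1, 48.5 and 49.5 CPM in shCtr total RNA and 169, 46.0 and 47.7 CPM in shOSGEP. The high value was that of replicate 1 alone, with RNA changes of 1.49, −0.075 and −0.053 in the 3 pairs and footprint changes of 1.29, −0.25 and 0.039.

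**Figure D1:**
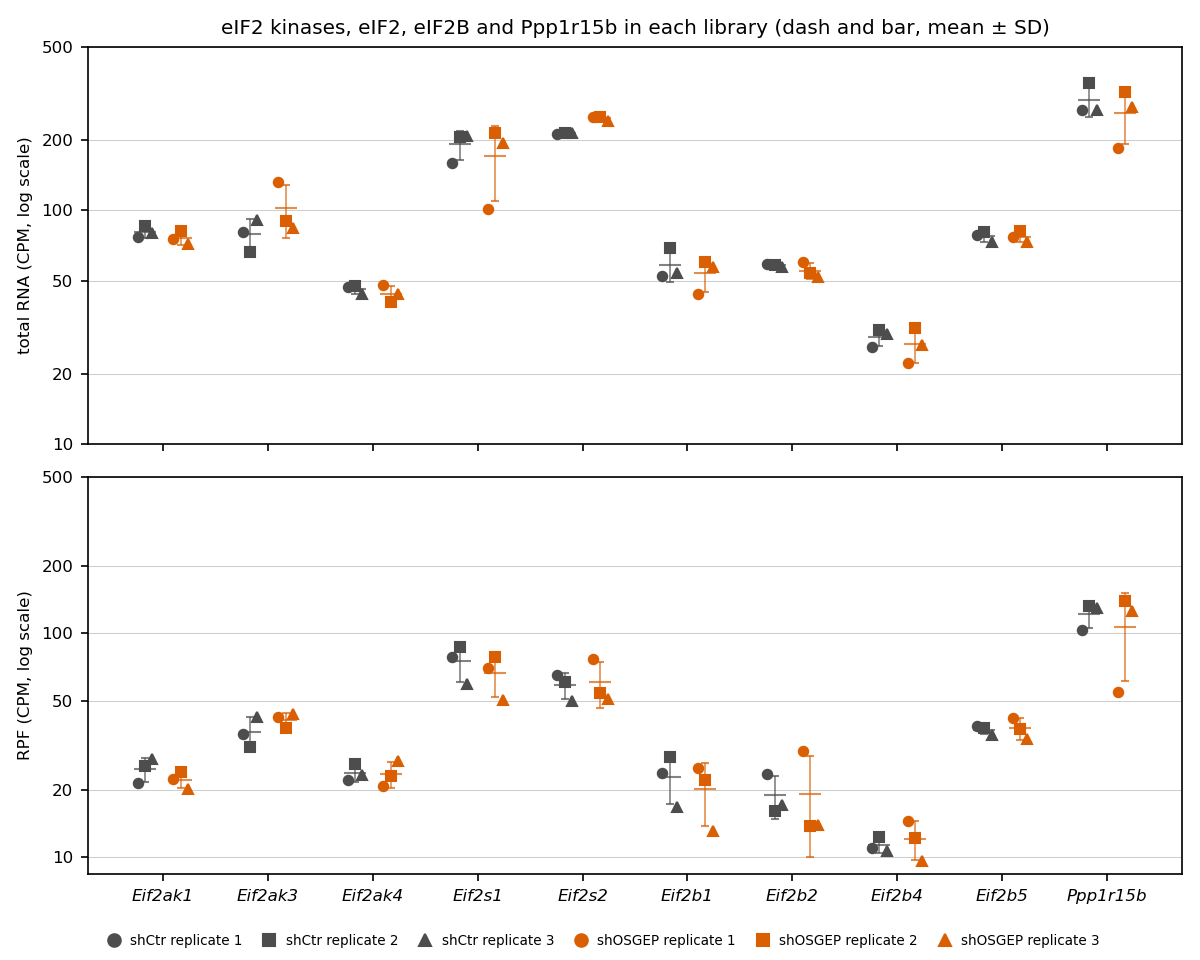
CPM of the 10 genes in the 6 total RNA libraries (upper) and the 6 RPF libraries (lower), on log axes, with shCtr in grey, shOSGEP in orange, a symbol shape for each replicate, and dash and bar for mean ± SD (n = 3). The grey and orange points of a gene overlap everywhere except for Eif2s2 in total RNA, where the shOSGEP points are all higher, and shOSGEP replicate 1 (orange circles) stands apart for Eif2ak3 and Eif2s1 in total RNA and for Ppp1r15b in RPF.

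The substrate and its partner were examined next. Eif2s1 (ENSMUSG00000021116, chr12:78861819-78887010, plus strand) encodes eIF2 alpha. Its total RNA was 160, 206 and 208 CPM in shCtr and 101, 214 and 195 CPM in shOSGEP. The low value came from shOSGEP replicate 1, and in the other 2 pairs the change was 0.054 and −0.094 on the log2 scale. In RPF, Eif2s1 was 78.4, 86.9 and 59.6 CPM in shCtr and 69.8, 78.8 and 50.5 CPM in shOSGEP, lower in all 3 pairs by 0.14 to 0.24 on the log2 scale but with overlapping groups. The fitted change of −0.17 in total RNA (SE 0.29, edgeR adjusted p 0.975) became 0.088 without the shOSGEP replicate 1 library. In RPF it was −0.18 (SE 0.29, edgeR adjusted p 0.9998).

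Eif2s2 encodes eIF2 beta, the subunit that contacts the GTPase-activating and exchange factors. It was the only one of the 10 genes whose groups did not overlap in a comparison of CPM. Its total RNA was 212, 215 and 214 CPM in shCtr and 252, 249.9 and 241 CPM in shOSGEP, 1.16-fold higher by the fit (log2 change 0.21, SE 0.12, 95% interval of the fold 0.952 to 1.41, edgeR adjusted p 0.975). Groups that do not overlap made up 7.08% of all genes tested in total RNA, so 1 gene of 10 is near that background. In RPF and in translational efficiency 0 of 10 genes were separated in this way, beside 5.07% and 4.34% of all genes. The difference was alike in the 3 pairs (0.25, 0.21 and 0.17). RPF listed on Eif2s2 were 65.2, 60.9 and 50.01 CPM in shCtr and 77.0, 54.4 and 50.8 CPM in shOSGEP, a fitted log2 change of 0.048 (SE 0.28).

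Footprints of Eif2s2 could not be read without its copy. Over the 6 RPF libraries 6375 counts were listed on Gm9892 and 9306 on Eif2s2, whereas over the total RNA libraries 421 were listed on the copy and 84624 on the gene. In RPF the copy held 21.2%, 43.3% and 35.8% of their joint counts in shCtr replicates 1, 2 and 3 and 34.7%, 46.0% and 49.4% in shOSGEP. The lowest of these shares had a 95% Wilson interval of 19.2% to 23.4% and the highest one of 47.8% to 51.0%, which cover counting error only, and in each pair the share was higher in shOSGEP. In total RNA the share was 0.18% to 0.70%. With the reads of the copy added, Eif2s2 RPF were 82.8, 108 and 77.9 CPM in shCtr and 118, 101 and 100.4 CPM in shOSGEP. The fitted RPF change was then 0.25 in place of 0.048, and the fitted change in translational efficiency was 0.029 in place of −0.17, both without passing the test.

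Eif2s1 has 5 processed pseudogenes, which are less alike to it, at 92.2% to 96.8% identity over 371 to 949 bases. Of the 919 windows of 30 bases in its coding sequence, 58.3% are found in any of these copies. The share was 37.8% for Gm7459 and 14.8% for Gm13602. Together the 5 copies held 1158 RPF counts against 11136 on the gene and 117 total RNA counts against 65530. The copies held 7.14%, 17.6% and 1.85% of the joint RPF counts in shCtr and 0%, 19.8% and 2.99% in shOSGEP. The 0 of 845 counts in shOSGEP replicate 1 allows a share of up to 0.355% by 3 counts of the total and up to 0.453% by the Wilson limit. Most of the RPF counts on copies were on Gm7459 (764) and Gm13602 (382). The share of RPF counts on copies was highest in replicate 2 of both genotypes. With the copies added, the fitted RPF change of Eif2s1 was −0.19.

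**Figure D2:**
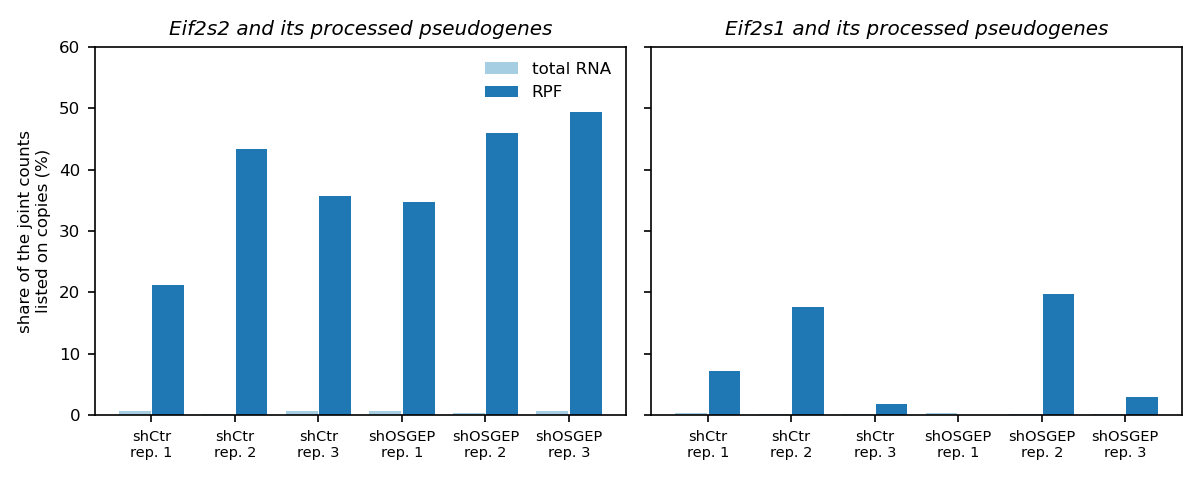
Share of the joint counts of a gene and its processed pseudogenes that was listed on the pseudogenes, in percent, for Eif2s2 with 1 copy (left) and Eif2s1 with 5 copies (right) in each library, with total RNA as light bars and RPF as dark bars. For Eif2s2 the RPF bars reach 21.2% to 49.4% and the total RNA bars stay under 1%, and for Eif2s1 the RPF bars lie between 0% and 19.8%.

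The gamma subunit is encoded by Eif2s3x, which is not one of the 10 genes. Its total RNA was 314, 374 and 325 CPM in shCtr and 219.9, 365 and 332 CPM in shOSGEP, again with the low value in shOSGEP replicate 1, and its fitted change did not pass the test (log2 change −0.14, SE 0.21). Its homologue Eif2s3y was listed at 0 counts in all total RNA libraries and at 1 count in 1 RPF library.

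The eIF2B subunits followed. Eif2b1 (ENSMUSG00000029388, chr5:124570213-124579131, minus strand) encodes the alpha subunit of eIF2B, which joins the regulatory part that senses phosphorylated eIF2. Total RNA was 52.5, 69.1 and 54.2 CPM in shCtr and 43.7, 60.2 and 57.2 CPM in shOSGEP, with fitted log2 change −0.13 (SE 0.19). Its RPF were 23.9, 28.01 and 16.9 CPM in shCtr and 25.1, 22.2 and 13.1 CPM in shOSGEP. Both assays overlapped, and replicate 3 gave the lowest RPF value in either genotype.

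Eif2b2 (ENSMUSG00000004788, chr12:85219481-85226628, plus strand) encodes the beta subunit, also of the regulatory part. Its total RNA was 59.2, 58.5 and 57.1 CPM in shCtr and 59.8, 53.8 and 51.7 CPM in shOSGEP. Its RPF were 23.6, 16.1 and 17.2 CPM in shCtr and 29.7, 13.9 and 13.97 CPM in shOSGEP, where the pairs differed in sign (0.33, −0.21 and −0.30). In both genotypes replicate 1 was the highest RPF library. The fitted RPF change was 0.015, with a 95% interval of the fold from 0.547 to 1.86.

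Eif2b4 (ENSMUSG00000029145, chr5:31187558-31193430, minus strand) encodes the delta subunit, the third of the regulatory part. Total RNA was 25.9, 30.7 and 29.6 CPM in shCtr and 22.3, 31.4 and 26.5 CPM in shOSGEP. Its RPF were 10.99, 12.3 and 10.7 CPM in shCtr and 14.5, 12.2 and 9.67 CPM in shOSGEP. The shOSGEP replicate 1 library combined the lowest RNA and the highest RPF value of this gene, and its pair change in RPF to RNA ratio, 0.62 on the log2 scale, was the largest of any of the 10 genes. The fitted change in translational efficiency, 0.19 (SE 0.28, edgeR adjusted p 0.99999), did not pass the test.

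Eif2b5 (ENSMUSG00000003235, chr16:20498817-20509323, plus strand) encodes the epsilon subunit, which catalyses the exchange of GDP for GTP. It had the fitted change closest to 0 in total RNA. Total RNA was 78.8, 80.9 and 73.0 CPM in shCtr and 76.8, 81.2 and 73.5 CPM in shOSGEP, and its RPF were 38.5, 37.9 and 35.2 CPM in shCtr and 42.1, 37.6 and 33.7 CPM in shOSGEP. The pair changes in total RNA lay between −0.036 and 0.009, and the fitted log2 changes were −0.0071 in total RNA (SE 0.13), 0.023 in RPF (SE 0.23) and 0.022 in translational efficiency (SE 0.22). The 95% interval of the fold in total RNA was 0.807 to 1.23. Eif2b3, the gene of the gamma subunit and not one of the 10, measured 15.7, 19.6 and 16.3 CPM in shCtr total RNA and 15.8, 20.3 and 17.3 CPM in shOSGEP, with a fitted RPF change of 0.38 (SE 0.33).

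Ppp1r15b (ENSMUSG00000046062, chr1:133131143-133139783, plus strand) encodes CReP, the subunit that directs phosphatase 1 to eIF2 alpha in unstressed cells. Its total RNA was 269.9, 349.8 and 269.95 CPM in shCtr and 184, 319 and 278 CPM in shOSGEP. Its RPF were 104, 132 and 130.03 CPM in shCtr and 54.6, 139.6 and 126 CPM in shOSGEP. In both assays the lowest value was that of shOSGEP replicate 1, with pair changes of −0.55 and −0.93, whereas the RNA of replicates 2 and 3 differed by −0.13 and 0.042 and the footprints by 0.078 and −0.046. The fitted RPF change of −0.19 (SE 0.40, edgeR adjusted p 0.9998) was 0.11 without that library. Ppp1r15a, the gene of the inducible counterpart GADD34 and not one of the 10, measured 22.2, 16.1 and 12.8 CPM in shCtr total RNA and 74.9, 20.4 and 21.02 CPM in shOSGEP, a fitted log2 change of 1.19 (SE 0.54, edgeR adjusted p 0.975). It was higher in all 3 pairs in total RNA (1.75, 0.34 and 0.71) and in RPF (1.05, 0.79 and 1.06).

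Over the 10 genes, 0 were called at an adjusted p of 0.05 in total RNA, RPF and translational efficiency, by edgeR, DESeq2 and limma with voom alike, and 0 had an unadjusted p under 0.05 in edgeR. The background was 0% of genes called by edgeR in each comparison, and 1.78% of 14516 genes in total RNA, 1.03% of 13529 in RPF and 0.135% of 12560 in translational efficiency had an unadjusted p under 0.05. Over all genes, DESeq2 called 8 in total RNA and 1 in RPF, and limma called 2 and 0. Osgep, the depleted gene, did not pass either (edgeR log2 change −1.65, SE 0.77, adjusted p 0.975 in total RNA, and −0.84, SE 0.39, adjusted p 0.9998 in RPF). The 0 calls among the 10 genes thus do not show that they were unchanged. All upper limits of the 95% intervals were under a 2-fold increase, the highest being 1.84 in total RNA (Eif2ak3), 1.86 in RPF (Eif2b2) and 1.99 in translational efficiency (Ppp1r15b). The lowest lower limits were 0.551 in total RNA (Eif2s1), 0.456 in RPF (Ppp1r15b) and 0.493 in translational efficiency (Ppp1r15b). Their median log2 change was −0.083 in total RNA, −0.0016 in RPF and −0.013 in translational efficiency, beside 0.021, 0.045 and −0.0024 over all genes tested.

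By pairs, 2 of the 10 genes went the same way in all 3 replicates in total RNA (Eif2s2 higher, Eif2ak1 lower; 33.9% of all genes did so), 2 in RPF (Eif2ak3 higher, Eif2s1 lower; 30.8%) and 1 in translational efficiency (Eif2s2 lower; 22.8%). These counts are at or under the background shares. With the reads of Gm9892 added, Eif2s2 RPF changed by 0.51, −0.096 and 0.37 in the 3 pairs, beside 0.25, 0.22 and 0.17 in total RNA, so that its efficiency was then lower in 1 pair and higher in the others. No pair difference of the 10 genes exceeded 1 on the log2 scale, whereas that of 3153 of 14516 genes did in the RNA of replicate 1, of 646 genes in replicate 2 and of 643 in replicate 3. The SD of the pair changes over the 10 genes was 0.39, 0.20 and 0.11 in total RNA for replicates 1, 2 and 3, beside 1.00, 0.48 and 0.50 over all genes. By total RNA per length, the 10 genes lay from the 71.2 (Eif2ak4) to the 96.4 percentile (Ppp1r15b) of coding genes. The comparison with all genes was not matched for level, so it does not show that the 10 genes were unusually stable. The spread was widest in replicate 1, both for the 10 genes and for all genes. That pair had the least Osgep RNA but the most Osgep footprints left, and the part of the knockdown in this spread was not tested.

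**Figure D3:**
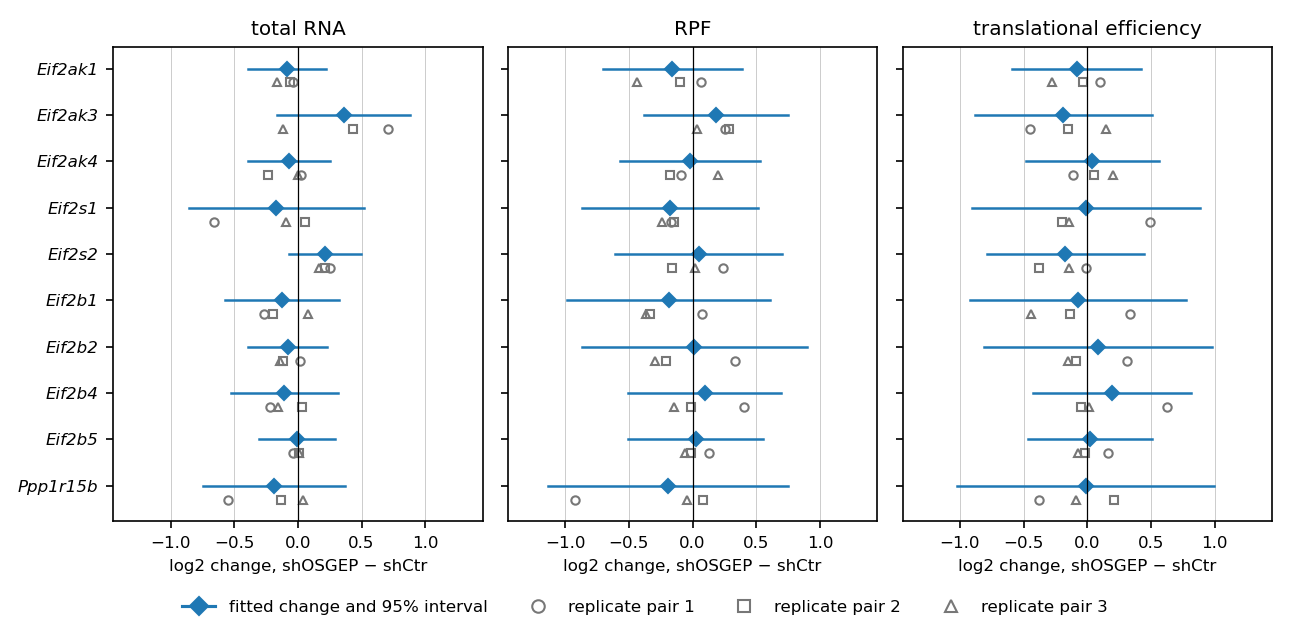
Log2 change from shCtr to shOSGEP of the 10 genes in total RNA, RPF and translational efficiency, with the edgeR estimate and its 95% interval in blue and the change in each replicate pair as open grey symbols. All intervals span 0, and in total RNA the pair symbols of replicate 1 (circles) lie farthest out for Eif2ak3, Eif2s1 and Ppp1r15b.

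To compare the genes with each other, counts were divided by length and scaled to a sum of 1 M over protein-coding genes (TPM), with the coding length for RPF and the exon union for total RNA. In RPF the order by the median of 6 libraries was Eif2s1 (225 TPM), Ppp1r15b (200.2), Eif2s2 (186), Eif2b1 (74.7), Eif2ak3 (62.2), Eif2b5 (54.3), Eif2b2 (51.8), Eif2ak1 (40.6), Eif2b4 (22.4) and Eif2ak4 (16.6). Neighbours in this order overlapped except Eif2s2 and Eif2b1, and Eif2ak1 and Eif2b4, so the values fell into 3 tiers. The eIF2 subunits and Ppp1r15b formed the upper tier with one exception in their values, the 71.2 TPM of Ppp1r15b in shOSGEP replicate 1. Eif2s2 with its copy reached a median of 323 TPM.

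In total RNA the order was Ppp1r15b (194 TPM), Eif2s1 (149), Eif2s2 (128), Eif2b2 (114), Eif2b5 (112), Eif2b1 (82.8), Eif2ak3 (54.02), Eif2ak1 (52.2), Eif2b4 (41.0) and Eif2ak4 (23.2). Here Eif2b5 and Eif2b1, Eif2ak1 and Eif2b4, and Eif2b4 and Eif2ak4 did not overlap. The choice of isoform length moved single places. With the longest coding length, Eif2ak3 RPF were 38.3 TPM, below Eif2ak1, and with the longest coding transcript Eif2s2 was first in total RNA at 241 TPM. Eif2ak4 was the lowest of the 10 in both assays and with either length.

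**Figure D4:**
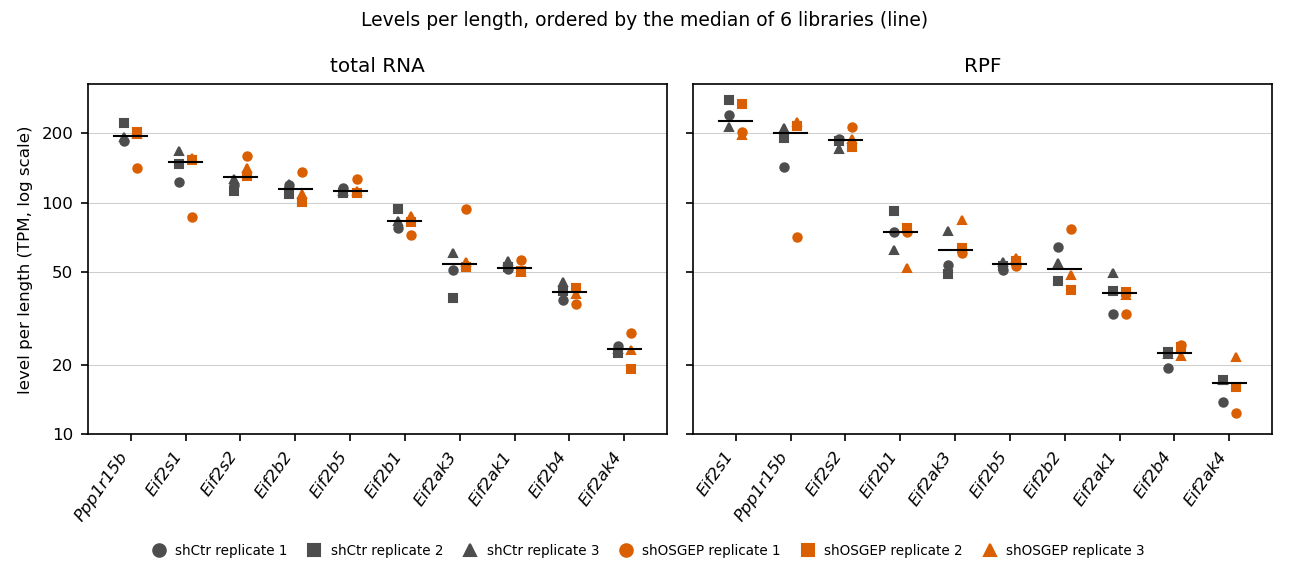
Level per length (TPM, log axis) of the 10 genes in total RNA (left) and RPF (right), each ordered by the median of the 6 libraries (black line), with shCtr in grey, shOSGEP in orange and a symbol shape for each replicate. Eif2s1, Ppp1r15b and Eif2s2 lead in both assays and Eif2ak4 is lowest in both.

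The ratio of RPF TPM to total RNA TPM, a description of footprints per transcript and length, differed among subunits of one complex. Its median log2 value over the 6 cell samples was 0.86 for Eif2s1 (0.33 to 1.21) and 0.42 for Eif2s2 (0.41 to 0.72, reads of the copy left out), but −0.67 (−1.24 to −0.46) for the third eIF2 subunit gene, Eif2s3x. It was −1.14 for Eif2b2 (−1.26 to −0.82), −1.03 for Eif2b5 (−1.24 to −0.96) and −0.88 for Eif2b4 (−1.03 to −0.59), placing these 3 at the 8.23, 10.8 and 14.8 percentile of tested coding genes. Eif2b1 lay between, at −0.069. With the reads of copies left out, neither complex had a common level of footprints per transcript. Eif2b3 then had the highest ratio of the genes computed, 1.23 (0.91 to 1.61). With copies added, median levels in RPF and total RNA were 323 and 129 TPM for Eif2s2 and 236 and 150 TPM for Eif2s1. The order of Eif2s1 and Eif2s2 thus depends on how copies are counted, and copies of Eif2s3x were not searched for. With the longest lengths, and copies again left out, Eif2s1 stayed at 0.92 and Eif2b2 at −0.76. Eif2s2 was then at −0.35 and Eif2b5 at −0.44 (the 27.4 percentile), so the places of these last genes depend on the transcript model. The ranges of shCtr and shOSGEP overlapped for Eif2s1, Eif2b2, Eif2b4 and Eif2b5. Those of Eif2s2, with its copy left out, were 0.43 to 0.72 in shCtr and 0.408 to 0.418 in shOSGEP and narrowly missed each other on this scale. With the longest lengths they overlapped, at −0.36 to −0.085 in shCtr and −0.39 to −0.34 in shOSGEP. The share of all genes whose groups miss each other on this scale was not computed.

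Ratios between pairs of genes within a library do not depend on scaling and were compared between genotypes with a two-sided exact permutation test, 7 in each assay. With 3 against 3 the smallest p this test can give is 0.1. The lowest p was 0.2, for Eif2ak1 over Eif2ak3 in both assays. That ratio was lower in shOSGEP by 0.43 on the log2 scale in total RNA (0.033 ± 0.29 in shCtr, −0.40 ± 0.37 in shOSGEP) and by 0.35 in RPF (−0.55 ± 0.24 and −0.89 ± 0.22; SD, n = 3), in 3 of 3 pairs each, with an adjusted exact permutation p of 1 and 0.7. Eif2b2, Eif2b4 and Eif2b5 over Eif2b1 differed by 0.012 to 0.12 in total RNA and by 0.15 to 0.29 in RPF, all with overlapping groups. In RPF all 3 ratios were higher in shOSGEP in 3 of 3 pairs, with exact permutation p of 0.3 to 0.5 (adjusted 0.7), and they share the denominator Eif2b1. Eif2s2 over Eif2s1 was higher by 0.44 in total RNA, of which the pair of replicate 1 gave 0.91 and the other pairs 0.16 and 0.26.

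ANN codons, the codons read by the tRNAs that KEOPS modifies, made up 35.3% of the Eif2s2 coding sequence and 33.02% of that of Eif2s1. Those shares lie at the 94.96 and 88.05 percentile of 21456 coding genes, whose median share was 27.7%. Eif2b1 (29.5%), Eif2b2 (28.8%), Eif2ak1 (27.8%), Eif2ak3 (27.4%) and Eif2ak4 (27.3%) were near the median, and Eif2b5 (23.6%), Eif2b4 (23.1%) and Ppp1r15b (20.8%, the 11.5 percentile) were lower. The fitted changes in translational efficiency of the extremes of this order were −0.17 for Eif2s2, −0.012 for Eif2s1 and −0.014 for Ppp1r15b, each within its error. These values leave out the reads of copies. With the reads of Gm9892 added, that of Eif2s2 was 0.029, of the opposite sign. Upstream start codons were present in the annotated leaders of Ppp1r15b (3 ATGs in 604 bases), Eif2ak3 (3 in 211) and Eif2s1 (2 in 363) and in none of the other 7 leaders, which were 32 to 118 bases long. The fitted changes in translational efficiency of these 3 genes, −0.014, −0.19 and −0.012, did not pass the test. Counts per gene do not separate footprints on these leaders from those on the coding sequence.

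As a description of likeness, all 12559 other genes tested in both assays were ranked by the Pearson correlation of their log2 CPM with that of Eif2ak1 over the 12 libraries, centred within each assay. The 3 highest were M1ap (0.85), Ints3 (0.82) and Mrps7 (0.78). Within the set, Eif2ak1 correlated with the other 9 genes between −0.32 (Eif2ak3) and 0.39 (Ppp1r15b). These values share libraries and their depth.

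The other genes of the pathway were taken from a list of 23, of which 22 were tested. It holds the remaining subunits and kinase, the catalytic phosphatase genes, regulators of the kinases such as Dnajc3, Nck1, Gcn1l1, Impact, Dele1 and Oma1, and factors that act with eIF2 such as Eif5. In total RNA 0 of 22 had an unadjusted p under 0.05 in either direction, with a median log2 change of 0.052, and in RPF 0 of 22 with a median of 0.067. The 2 highest changes in total RNA were those of Ppp1r15a and Eif2ak2 (0.73, SE 0.51), and the 2 lowest those of Dnajc3, an inhibitor of PERK and PKR (−0.42, SE 0.32), and Gcn1l1, an activator of GCN2 (−0.20, SE 0.13). In RPF the highest were again Ppp1r15a (1.01, SE 0.43) and Eif2ak2 (0.56, SE 0.48), and the lowest Dnajc3 (−0.57, SE 0.42) and Eif2a (−0.42, SE 0.47). In translational efficiency 0 of 22 passed, with a median of −0.058.

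Downstream targets of eIF2 phosphorylation and ATF4 were set beside them from a list of 20 genes chosen with earlier results of these libraries known, so their direction is not independent evidence. Vldlr and Stc2 were too low to be tested. In total RNA 0 of 18 passed the adjusted threshold, while 11 were higher and 0 lower at an unadjusted p under 0.05, against 1.78% of all genes in either direction, and the median log2 change was 0.77. Atf4 itself, the transcription factor gene, was 242, 264 and 274 CPM in shCtr and 441, 347 and 402 CPM in shOSGEP, without overlap (log2 change 0.61, SE 0.15, edgeR adjusted p 0.975). Its RPF groups overlapped, at 55.8, 60.8 and 96.0 CPM in shCtr and 88.1, 77.8 and 121.8 CPM in shOSGEP. The translational efficiency of Atf4 was lower in 3 of 3 pairs, by 0.21, 0.040 and 0.21 on the log2 scale, with a fitted change of −0.18 (SE 0.36, edgeR adjusted p 0.99999). Counts are given per gene, so footprints on its leader and on its coding sequence cannot be told apart. The value therefore does not show whether translation of the coding sequence rose or fell. Trib3, a pseudokinase gene induced by ATF4, was 28.7, 16.6 and 10.9 CPM in shCtr and 144.5, 34.03 and 59.5 CPM in shOSGEP, higher by 2.08 on the log2 scale (SE 0.59).

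The remaining 9 with an unadjusted p under 0.05 had total RNA log2 changes of 1.77 (Nupr1), 1.72 (Aldh1l2), 1.43 (Chac1), 1.37 (Atf5), 0.86 (Asns), 0.72 (Sesn2), 0.52 (Mthfd2), 0.32 (Psat1) and 0.32 (Phgdh), with SE from 0.12 to 0.69. Among them are genes of asparagine, serine and folate metabolism (Asns, Psat1, Phgdh, Mthfd2, Aldh1l2) and of glutathione breakdown (Chac1). The total RNA groups of Nupr1, Aldh1l2, Chac1 and Atf5 overlapped. Their highest library was shOSGEP replicate 1, at 37.1, 370, 104 and 184 CPM in that order. Those of Asns, Sesn2, Mthfd2, Psat1 and Phgdh did not overlap. In RPF 17 of the 18 targets were higher, beside 7421 of all 13529 genes tested, with a median of 0.77. At an unadjusted p under 0.05 there were 4, namely Nupr1 (2.22), Trib3 (2.18), Aldh1l2 (1.63) and Sesn2 (0.68), against 1.03% of all genes. In translational efficiency 0 of 18 had an unadjusted p under 0.05, and the median was −0.091. Side by side, the 18 targets ranged from 0.28 to 2.08 in total RNA and the 10 genes of the switch from −0.19 to 0.36. Of the 10 genes 2 were above 0, beside 7712 of all 14516 genes tested. This difference between the lists was not tested.

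**Figure D5:**
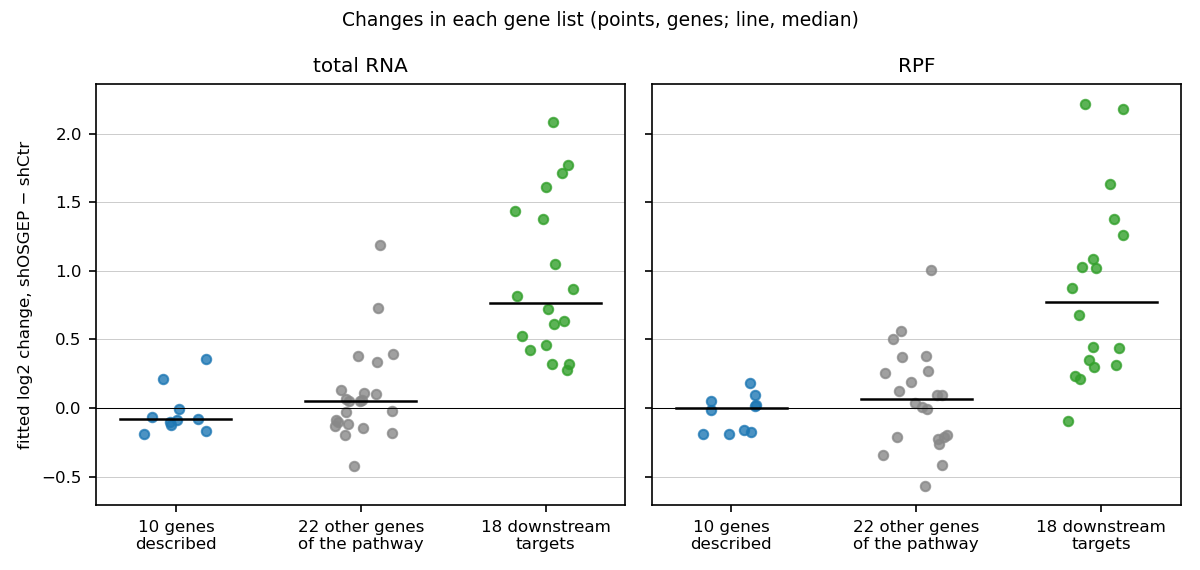
Fitted log2 changes from shCtr to shOSGEP in total RNA (left) and RPF (right) for the 10 genes described, 22 other genes of the pathway and 18 downstream targets, with each gene as a point and the median as a line. The total RNA medians are −0.083, 0.052 and 0.77, and the RPF medians are −0.0016, 0.067 and 0.77.

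Neighbouring genes limit what some counts mean, since the use of strand in the counting is not known. Eif2ak1 shares 1548 bases with Aimp2 on the other strand (11686 total RNA counts over all libraries, against 28542 on Eif2ak1), and Eif2b4 shares 204 bases with Snx17 (36317 counts, against 10103). Eif2s2 lies within the span of the gene a on the other strand, which had 1 total RNA count.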

How the data were processed

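The deposited tables hold raw read counts per Ensembl gene for the 6 RPF and 6 total RNA libraries, which the authors made without normalisation. Per the labels, footprints were obtained with a puromycin-analogue pulldown (2 per sample) and size selection. Their notes name FastQC 0.11.9, Trim Galore 0.6.6, Cutadapt and STAR and both GRCm38 and GRCm39. The counting step, its annotation, strand use and treatment of reads with several matches are not given for these tables in the sources used here. The study describes a TruSeq kit and Salmon for RNA sequencing that it lists as a separate series, and whether they apply to these total RNA libraries, whose molecule the labels give as polyA RNA, is unclear. Symbols and coordinates are from GENCODE M21 (GRCm38), which held 55141 of 55487 gene IDs.

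The count model was edgeR 4.0.16 (R 4.3.3) over all genes, with its quasi-likelihood test (filterByExpr, TMM, Benjamini-Hochberg, threshold 0.05), separately for RPF and total RNA. Translational efficiency was the interaction of assay and genotype over 12 libraries, where the RPF and total RNA libraries of a cell sample were treated as independent. CPM used TMM library sizes, and pair changes used log2 CPM with a prior count of 2. P-values measure the spread between 3 samples of 1 line, and samples were not paired in these fits. Similar transcripts were found with BLAST+ 2.17.0 (at least 85% identity over 100 bases). Scripts were tested on simulated data.

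Replicate numbers are those of the labels. Pairing was judged across genes from how far shCtr and shOSGEP libraries with one number deviate together from the group means. Replicates 1, 2 and 3 gave correlations of 0.52, 0.54 and 0.29 for total RNA, and 0.59, 0.51 and 0.66 for RPF, each over 0.1, so the numbers were taken to pair the samples in an alternative fit with a replicate block. No block is described by the study.

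The 10 genes, the gene lists and the tests were chosen with earlier results of these data known. All 10 are named; of the lists, genes with an unadjusted p under 0.05 in total RNA or RPF are named, or else the 2 highest and 2 lowest, and always Eif2s3x, Eif2s3y, Eif2b3, Eif2ak2 and Ppp1r15a. Alternatives were other size factors, filters, DESeq2 1.42.0, limma 3.58.1 with voom and sample weights, protein-coding genes only, the replicate block, common TMM factors and leaving out each library. Leaving out both genotypes of a replicate, and adding pseudogene reads, were chosen after seeing the data.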

Additional observations from a re-analysis of the deposited data

How the results depend on the processing

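Under the alternatives, the 520 refitted changes of the 10 genes gave 0 calls, and the smallest unadjusted p was that of Eif2s2 in total RNA with limma (0.074, smallest of all 520 refits). Over all genes in total RNA, DESeq2 called 8 of 14516, limma 2 and the replicate block 1. In RPF the fit without a filter beyond 1 count called 229 of 33633. Such small shares leave little room for a call among 10 genes. The replicate block changed no call among the 10 genes. With it, 449 of 14516 genes in total RNA and 549 of 13529 in RPF had an edgeR unadjusted p under 0.05. Without it these counts were 259 and 139. In either assay 0 of the 10 genes were among them, with or without the block. The direction differed from the reported one in 78 refits, all of changes no larger than 0.19 on the log2 scale. Eif2ak3 and Eif2s2 in total RNA and Eif2ak1, Eif2ak3 and Eif2s1 in RPF kept their sign throughout, as did Eif2ak1 and Eif2b2 in total RNA. Adding pseudogene reads and leaving out both genotypes of a replicate were chosen after seeing the data, and the cause of each reversal was not tested. SEs were 0.23 to 0.40 in RPF and 0.22 to 0.46 in efficiency, against 0.12 to 0.29 in total RNA, and the part of depth in this was not tested.

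The reversed log2 changes, and the moved medians of the 10 genes, were as follows. Without a filter beyond 1 count, the median in total RNA was −0.10, the RPF changes of Eif2s2, Eif2b2 and Eif2b5 were −0.027, −0.075 and −0.046, and the efficiency change of Eif2b5 was −0.018. With at least 10 counts in every library, Eif2ak4 was at 0.0049 in RPF, and Eif2s1 and Ppp1r15b were at 0.0048 and 0.0085 in efficiency. By limma with voom and sample weights, the median in total RNA was −0.050 and Eif2s1 was at 0.029; in RPF, Eif2ak4 was at 0.00078, Eif2s2 at −0.11, Eif2b2 at −0.35, Eif2b5 at −0.022 and Ppp1r15b at 0.0080; in efficiency, Eif2ak1 was at 0.037, Eif2ak3 at 0.020, Eif2b2 at −0.24 and Ppp1r15b at 0.092. With the replicate block, that is with the samples paired, Eif2b2 was at −0.060 in RPF and Eif2s1 at 0.038 in efficiency. The efficiency change of Eif2s1 was 0.0037 with RLE size factors, 0.0038 by DESeq2, 0.0028 with TMM over all 12 libraries and 0.015 with protein-coding genes only, where Ppp1r15b was at 0.016. That of Eif2s2 was 0.029 with pseudogene reads added.

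Without replicate 1 of both genotypes, the median in total RNA was −0.066, the RPF changes of Eif2s2, Eif2b2, Eif2b4, Eif2b5 and Ppp1r15b were −0.089, −0.27, −0.084, −0.047 and 0.0073, and the efficiency changes of Eif2b2, Eif2b4, Eif2b5 and Ppp1r15b were −0.13, −0.017, −0.047 and 0.068. Without replicate 2 of both, the median in total RNA was −0.073, Eif2ak4 was at 0.0080 in total RNA and 0.060 in RPF, and Eif2s1 at 0.10 in efficiency. Without replicate 3 of both, the efficiency changes of Eif2ak1, Eif2ak4, Eif2s1, Eif2b1 and Ppp1r15b were 0.028, −0.041, 0.068, 0.094 and 0.023.

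With each library left out in turn, the median in total RNA ran from −0.11 to −0.0023, the latter without shOSGEP replicate 1. In total RNA the range was −0.38 to 0.088 for Eif2s1, −0.22 to 0.013 for Eif2b1, −0.24 to 0.0023 for Eif2b4, −0.064 to 0.026 for Eif2b5 and −0.36 to 0.0013 for Ppp1r15b. In RPF it was −0.13 to 0.053 for Eif2ak4, −0.17 to 0.16 for Eif2s2, −0.39 to 0.043 for Eif2b1, −0.46 to 0.19 for Eif2b2, −0.064 to 0.23 for Eif2b4, −0.073 to 0.094 for Eif2b5 and −0.44 to 0.11 for Ppp1r15b. In efficiency it was −0.15 to 0.0028 for Eif2ak1, −0.34 to 0.031 for Eif2ak3, −0.060 to 0.19 for Eif2ak4, −0.31 to 0.28 for Eif2s1, −0.38 to 0.22 for Eif2b1, −0.30 to 0.25 for Eif2b2, −0.064 to 0.34 for Eif2b4, −0.059 to 0.073 for Eif2b5 and −0.092 to 0.11 for Ppp1r15b.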
